A study of Mus musculus with 4 samples.

Results

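The desaturase genes Scd1 and Scd2 and the genes Fabp4 and Fabp2 of fatty acid-binding proteins were followed in E14.5 mouse fetal livers with and without Stk40. These 4 genes, of 1345 that have a name here, were read by 6 probe sets of 45101 on the array, namely 2 for Scd1, 1 for Scd2, 2 for Fabp4 and 1 for Fabp2. All probe sets were taken to which the authors' deposited table of 2-fold changes gives 1 of these 4 symbols alone. That table was itself made by a ratio of WT and Stk40 KO intensities on these arrays, so the values below are a description and no test is given for them. Any other probe set of these genes on the array has no name here and was not analysed.

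Affymetrix mouse genome arrays, which read each transcript with a set of short probes called a probe set, compared total RNA of whole fetal livers from WT and Stk40 KO embryos, 2 arrays per genotype. Both genotypes were on the C57BL/6J background and came from matings of Stk40 heterozygous mice, and the knockout is a conventional one, absent from all cells rather than from 1 lineage. RNA of 6 livers was pooled for every array, so that only the spread between pools was measured. In RNA of whole livers, a change in the share of a cell type and a change in RNA per cell cannot be told apart. The named Stk40 probe set read 59.9 and 52.2 in the WT pools and -98.9 and -111 in the Stk40 KO pools, all below the noise level defined next. Whether it lies in the deleted part was not examined.

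Intensities are linear, in arbitrary units, and were not scaled between arrays by the authors. The noise level was 143, a size that 95% of the negative values did not exceed. The WT arrays were dimmer, with medians of 29.9 and 33.9 against 37.5 and 39.3, so a ratio is given first as deposited and then at equal 75th percentiles, where the positive values of all arrays share 1 upper quartile. The ratio of the 3' to the 5' control probe set of Actb, a sign of RNA integrity, was 1.58 and 1.57 in the WT pools and 1.42 and 1.58 in the Stk40 KO pools. Of the erythroid markers, Tfrc, the transferrin receptor, could be read through a 3' control probe set, with 250.05 and 270.1 in the WT pools and 289 and 307 in the Stk40 KO pools. At equal 75th percentiles these values were 297 and 267 against 265 and 285, and overlapped. Its 5' control probe set read 110.1 and 116.6 against 91.95 and 50.7 as deposited and its middle one 82.95 and 89.95 against 79.4 and 69.5, lower in both Stk40 KO pools but all under the noise level. Alb and Afp, which define hepatoblasts, have no name here, so that part of the tissue label could not be checked.

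Scd1 and Scd2 encode stearoyl-CoA desaturases, enzymes of the endoplasmic reticulum that put the first double bond into saturated fatty acids and thereby make oleate and palmitoleate for membrane lipids and triglycerides. Scd1 is known as the main isoform of the adult mouse liver, and Scd2 as an isoform prominent in the brain and in early development. Fabp4 and Fabp2 belong to the intracellular lipid-binding proteins, small cytosolic carriers that hold fatty acids in solution. Fabp4 is known from adipocytes, macrophages and the endothelium of small vessels, and Fabp2 from the absorptive epithelium of the intestine. In the mouse genome (GRCm38.p6) Scd3, Scd2, Scd4 and Scd1 lie next to each other on chromosome 19 in this order. Fabp5, Pmp2, Fabp9, Fabp4 and Fabp12 form a row of related genes on chromosome 3, and Fabp2 lies elsewhere on the same chromosome. Of the neighbours in these clusters, the authors' table names none besides the members themselves.

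By their named probe sets, both desaturases read higher in the Stk40 KO pools. Any further probe set of theirs with a change under 2-fold would have no name and is not covered. By its brighter probe set (1415964_at), Scd1 had an intensity of 825 on WT replicate 1 and 1038 on WT replicate 2, and of 1880.3 and 1915 in the Stk40 KO pools. The genotypes did not overlap, and the Stk40 KO arrays lay close together. The mean was 932 ± 150.3 (SD, n = 2 arrays) in WT and 1898 ± 24.6 in Stk40 KO, a ratio of 2.04, and at equal 75th percentiles the ratio was 1.74. After that scaling the WT arrays read 981 and 1027 and the Stk40 KO arrays 1722 and 1778.5, so that the arrays of 1 genotype differed by at most 1.05-fold. By its dimmer probe set (1415965_at), Scd1 had 127 and 157 in the WT pools, around the noise level, and 299.6 and 309.7 in the Stk40 KO pools. Its ratio was 2.15 as deposited, or 2.04 on the log2 scale with the 1 WT value under the noise level raised to it. At equal 75th percentiles, where all 4 values lay above the noise level, it was 1.84. The ratios of the Scd1 probe sets to each other were nearly constant, at 0.154 and 0.151 in the WT pools and 0.159 and 0.162 in the Stk40 KO pools. Even so they did not overlap between genotypes, with a 1.05-fold higher mean in Stk40 KO.

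Scd2 (1415823_at) had 287 on WT replicate 1 and 398 on WT replicate 2, and 710.2 and 682 in the Stk40 KO pools. Here too the genotypes did not overlap, but the WT arrays lay further apart than those of Scd1, at 1.15-fold after scaling. The mean of 342 ± 78.3 in WT stood against 696 ± 19.7 in Stk40 KO (SD, n = 2 arrays), a ratio of 2.03, or 1.75 at equal 75th percentiles. Scd2 and the brighter Scd1 probe set were thus the members nearest to the 2-fold limit of the authors' table, and probe sets just under it have no name. At equal 75th percentiles all 3 desaturase probe sets fell under a ratio of 2, while the Fabp4 probe sets stayed above it. Scd1 and Scd2 are related copies, and how far the probes of 1 bind transcripts of the other was not examined here.

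Fabp4 had the largest ratio among the members. Its probe set 1417023_a_at had an intensity of 299.4 and 321 in the WT pools and of 1019 and 1365 in the Stk40 KO pools. The genotypes were far apart, with the lowest Stk40 KO array 3.17-fold above the highest WT array. Means were 310.2 ± 15.3 in WT and 1192 ± 245 in Stk40 KO (SD, n = 2 arrays), a ratio of 3.84, or 3.27 at equal 75th percentiles. The other probe set (1451263_a_at) had 256 and 288 in the WT pools and 873 and 1145 in the Stk40 KO pools, with a ratio of 3.71, or 3.16 after scaling. On both probe sets Stk40 KO replicate 2 was the brighter array of its genotype, by 1.36-fold and 1.33-fold after scaling. Without it the scaled ratios were 2.77 and 2.72, and without Stk40 KO replicate 1 they were 3.76 and 3.61.

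Fabp2 went the other way. Its probe set (1418438_at) had an intensity of 207 and 229.8 in the WT pools, above the noise level, and of 109 and 84.6 in the Stk40 KO pools, below it. The genotypes did not overlap, and since both Stk40 KO values lie in the noise only a lower bound of the change can be given. Against the noise level Fabp2 was at least 1.53-fold lower as deposited and at least 1.66-fold lower at equal 75th percentiles. The measured means were 218 ± 16.3 in WT and 96.8 ± 17.2 in Stk40 KO (SD, n = 2 arrays).

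**Figure D1:**
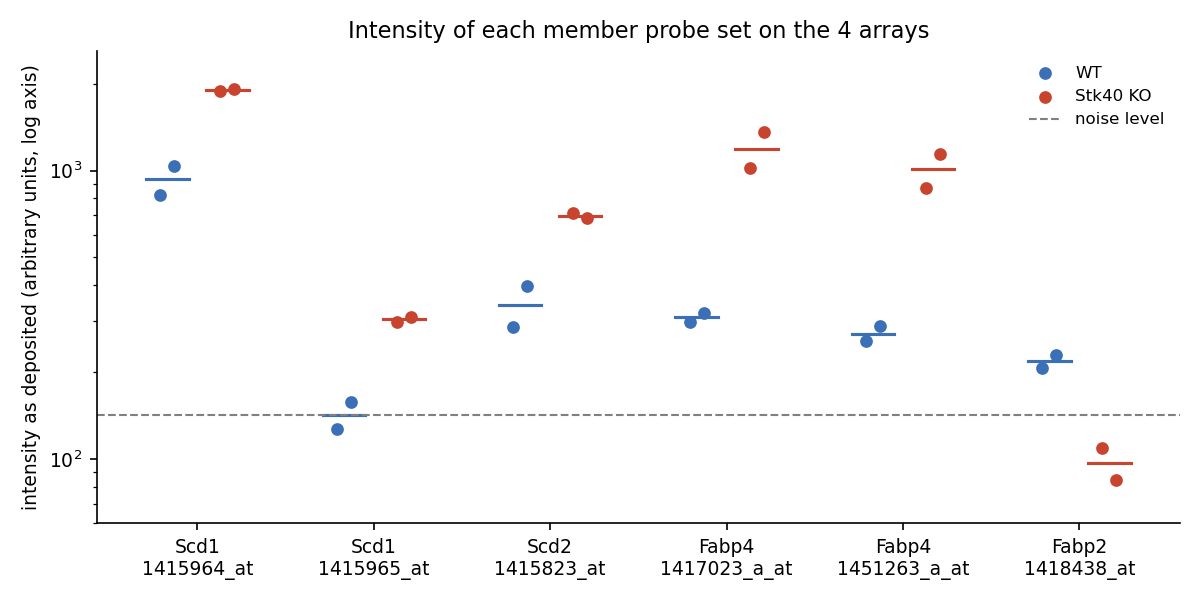
Intensity of each member probe set on the 4 arrays as deposited (arbitrary units, log axis), with points for arrays, short lines for the mean of each genotype (n = 2 arrays) and a dashed line at the noise level of 143. The 5 probe sets of Scd1, Scd2 and Fabp4 lie higher on both Stk40 KO arrays than on both WT arrays, and Fabp2 lies lower on both, under the noise level.

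Both Stk40 KO arrays lay above both WT arrays for the 5 probe sets of Scd1, Scd2 and Fabp4, and below them for Fabp2, under each of 4 scalings tried (as deposited, equal 75th percentiles, quantile normalization and equal spiked controls). Non-overlap of this kind was common among the 12332 probe sets that lay above the noise level on at least 2 arrays. As deposited, 44.7% of them were higher on both Stk40 KO arrays and 1.4% lower, and at equal 75th percentiles these shares were 16.1% and 32.3%. Ratios that reach 2-fold were rare. At equal 75th percentiles 0.365% of these probe sets had a ratio of at least 2 and 0.0649% a ratio of at most 0.5. As deposited these shares were 0.6% and 0.0487%. The scaled ratios of the Scd1 and Scd2 probe sets, 1.74 to 1.84, lie under that limit. Because the members were picked by such a ratio, nothing is read from these shares. With 2 arrays against 2, an exact two-sided permutation test could not give a p under 0.333.

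**Figure D2:**
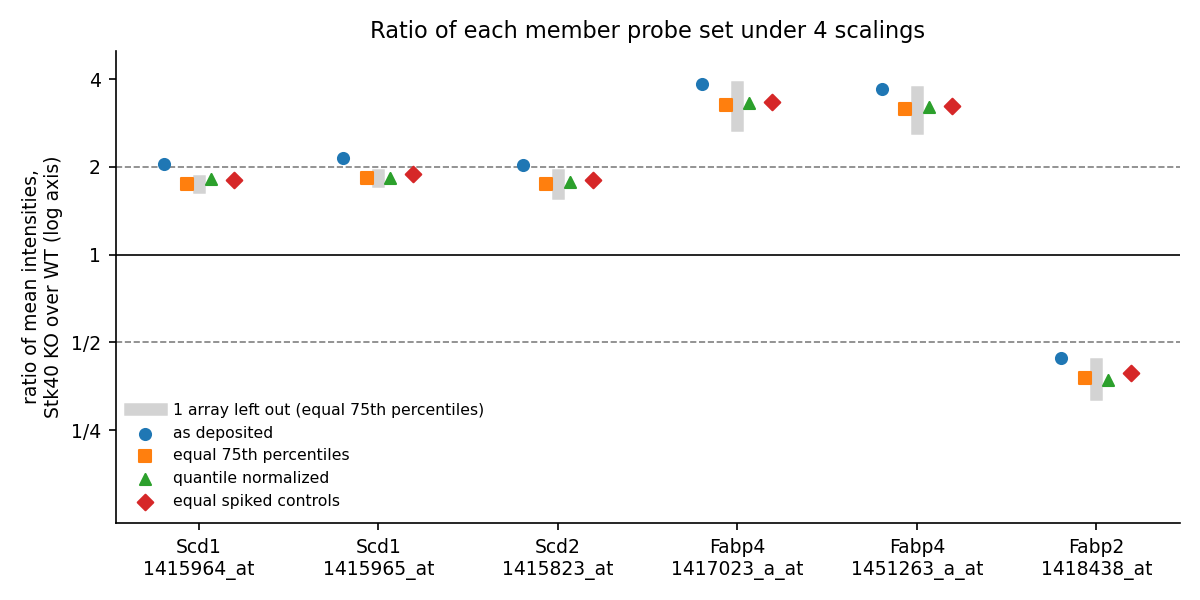
Ratio of mean intensities, Stk40 KO over WT, of each member probe set (log axis) under 4 scalings of the arrays. Grey bars give the lowest and highest ratio with 1 array left out at equal 75th percentiles, and dashed lines mark ratios of 2 and 0.5. The Scd1 and Scd2 probe sets lie between 1.74 and 2.15, and the Fabp4 probe sets between 3.16 and 3.84 over the 4 scalings. The Fabp2 points, all under 0.5, rest on Stk40 KO values in the noise and show its direction, not the size of its change.

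The place of a probe set among all others on its own array needs no scaling. The brighter Scd1 probe set was brighter than 94.4% and 94.5% of the probe sets in the WT pools and than 97.4% on each Stk40 KO array. Scd2 moved from 85.0% and 86.1% to 91.7% and 91.2%. The Fabp4 probe set 1417023_a_at moved from 85.4% and 83.7% to 94.3% and 95.9%. Fabp2 went from 80.9% and 79.5% to 67.7% and 62.9%, the last pair being places of values in the noise. Ordered by the scaled ratio among the 12332 probe sets, the Fabp4 probe sets were the 16th and 18th highest. The Scd1 probe sets were the 62nd and 73rd, and Scd2 was the 71st. No rank is given for Fabp2, whose ratio is only bounded.

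**Figure D3:**
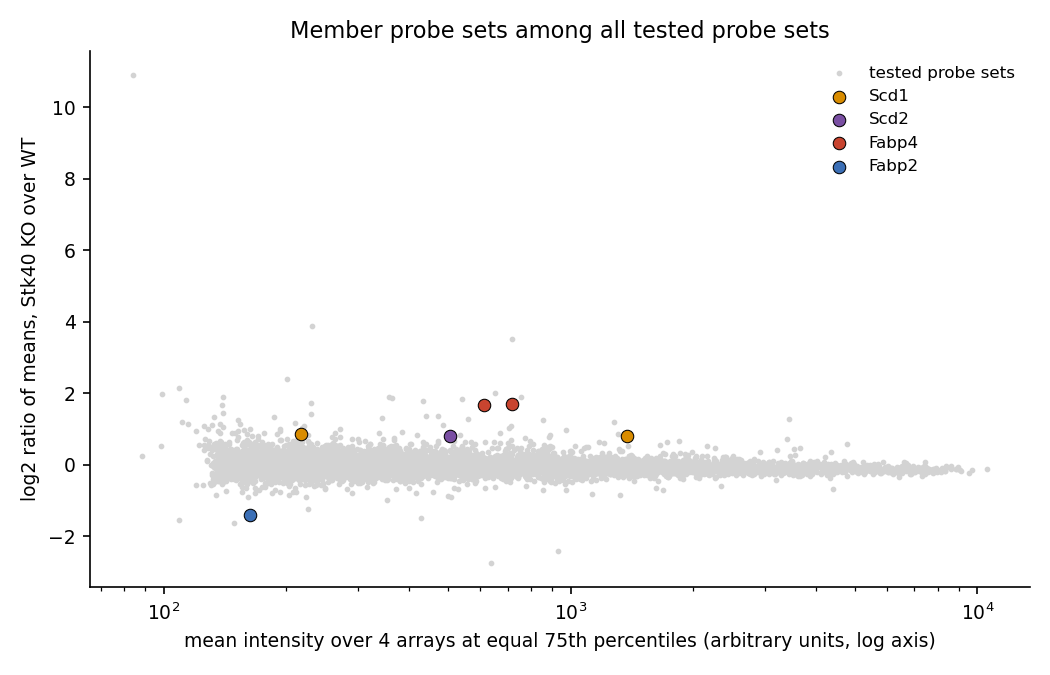
Log2 ratio of means (Stk40 KO over WT) against mean intensity over the 4 arrays (log axis), both at equal 75th percentiles, for the 12332 probe sets above the noise level on at least 2 arrays, with the members in colour. The Fabp4 probe sets lie at 1.71 and 1.66, the Scd1 and Scd2 probe sets between 0.80 and 0.88, at or beyond the edge of the cloud of other probe sets. Fabp2 is drawn at its measured means, of which the Stk40 KO mean lies in the noise, so its distance from 0 is not a measured size. The lone point at the top has a WT mean that was negative and was raised to 0.1. Of the 12332 probe sets, those with a negative mean intensity over the 4 arrays cannot be drawn on this axis.

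Ratios of 2 probe sets within an array, as deposited, describe how the members changed relative to each other. They restate the values by which the members were picked and are no separate support for a grouping. A common factor for all values of an array cannot change such ratios, though quantile normalization can. Such ratios compare changes and not levels, since probe sets differ in brightness for the same amount of RNA. The 1 named Scd2 probe set kept pace with Scd1 (1415964_at). Their ratio was 0.348 and 0.383 in the WT pools and 0.378 and 0.356 in the Stk40 KO pools, which overlap. Fabp4 (1417023_a_at) over the same Scd1 probe set was 0.363 and 0.309 in the WT pools and 0.542 and 0.713 in the Stk40 KO pools, a 1.87-fold higher mean without overlap. Fabp2 over Scd1 was 0.250 and 0.221 in the WT pools and, with Fabp2 set to the noise level, at most 0.0758 and 0.0744 in the Stk40 KO pools. The Fabp4 probe sets kept a ratio of 0.839 to 0.898 to each other on the 4 arrays, and overlapped between genotypes. The Scd1 probe sets did not overlap in their ratio to each other, at 1.05-fold, so lack of overlap alone does not set members apart.

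**Figure D4:**
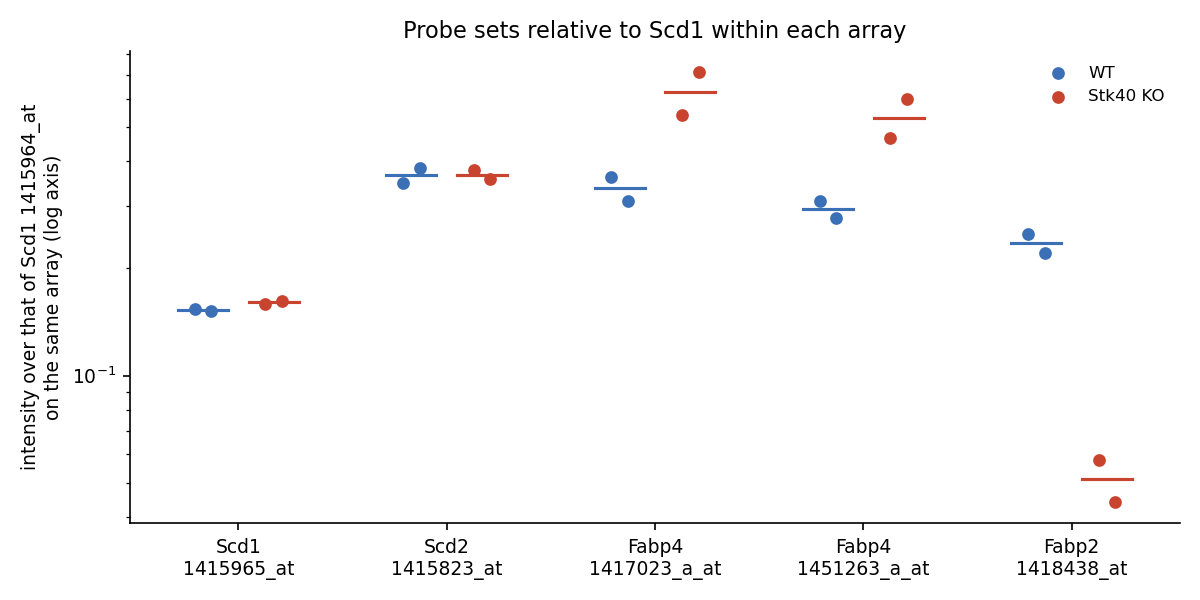
Intensity of 5 member probe sets divided by that of Scd1 1415964_at on the same array (log axis), with points for arrays and short lines for the mean of each genotype (n = 2 arrays). Scd2 overlaps between genotypes, and the dimmer Scd1 probe set lies slightly higher in the Stk40 KO pools without overlap. Both Fabp4 probe sets lie higher and Fabp2, drawn at measured values that are in the noise for Stk40 KO, lies lower in the Stk40 KO pools.

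Profiles over the 4 arrays were also compared, using log2 intensities at equal 75th percentiles, raised to the noise level and centred for each probe set. These distances come from the same 4 values per probe set as the ratios above. They largely restate those ratios and are no separate support for a grouping. The Euclidean distance was 0.08 between the Scd1 probe sets, 0.07 between the Fabp4 probe sets and 0.12 between Scd2 and the brighter Scd1 probe set. Fabp4 lay 0.81 to 0.98 from the desaturase probe sets. Fabp2, with both Stk40 KO values raised to the noise level, lay 1.54 to 2.44 from every other member, which is not a measured size. Among 74 named probe sets of other genes above the noise level on at least 2 arrays, those nearest to the brighter Scd1 probe set were Ptgfrn (0.06), Acsl4 (0.07) and Ptn (0.09), which encodes the growth factor pleiotrophin. Nearest to the dimmer Scd1 probe set were Ptn (0.03), Lyz2 (0.04), the lysozyme of myeloid cells, and Acsl4 (0.05). Both WT values of Acsl4 after scaling, 117 and 142, lay under the noise level and were raised to it. Its distances to Scd1 thus rest in part on that floor. Ptn had 153 and 190.0 in the WT pools and 368 and 372 in the Stk40 KO pools, and Lyz2 781 and 930.4 against 1818 and 1854. For Scd2 the nearest were both Scd1 probe sets (0.12 and 0.15) and Ptn (0.14).

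The 3 profiles nearest to each Fabp4 probe set all belonged to Cp, which encodes the plasma ferroxidase ceruloplasmin, at distances of 0.20 to 0.28 from 1417023_a_at and of 0.25 to 0.33 from 1451263_a_at. The nearest of them (1448734_at) had 139.5 and 139.1 in the WT pools and 549.9 and 668 in the Stk40 KO pools. For Fabp2 the nearest were Pqlc1 (0.29) and Ddx6 (0.76), an RNA helicase. The next, Rnf219 (0.83), is named for a ratio above 2, so only 2 of the 3 shared the direction of Fabp2. Both Stk40 KO values of Fabp2 and of Pqlc1 were raised to the noise level, so the distance between them depends only on their WT values. Names exist only for probe sets with a 2-fold ratio, so genes with like profiles and smaller changes are missing from these comparisons.

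Fatty acid metabolism beyond the members was looked up in 8 lists holding 181 further genes. The authors' table names 9 of them, 7 up and 2 down by its 2-fold rule, and this share of 77.8% up stands beside 70.9% up among all 1345 named genes. Over the array, that rule as deposited counted 3.79% of the 32791 probe sets it kept as up and 1.56% as down, and at equal 75th percentiles 2.48% and 2.2%. It named none of the 21 genes of fatty acid synthesis and its regulators, none of the 23 of cholesterol synthesis and uptake and none of the 16 adipocyte genes. Of 23 further desaturases and elongases it named Elovl4, an elongase of very long chain fatty acids. Of 13 further lipid-binding proteins it named Fabp7, known from the developing brain. A gene with no name here may be unchanged, changed by less than the limit or read by an unnamed probe set, and these cases cannot be told apart.

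Acsl4, a long-chain acyl-CoA synthetase that activates polyunsaturated fatty acids, was the only named lipid gene besides the members above the noise level on at least 2 arrays. Its intensity was 98.6 and 143 in the WT pools and 278 and 280.2 in the Stk40 KO pools, without overlap. At equal 75th percentiles both WT values lay under the noise level, so that Acsl4 was at least 1.81-fold higher in Stk40 KO. It was among the 1.25% of the 12332 probe sets that passed as higher in limma, where 0.689% passed as lower, at an adjusted p of 0.05. No p is given, since Acsl4 entered that fit only through the Stk40 KO pools, both WT values were set to the noise level and thus had no spread, and its name rests on a 2-fold ratio. Its probe set (1418911_s_at) is of a type that can bind transcripts of more than 1 gene.

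The other 8 lipid genes lay under the noise level on every array, so neither a fold nor a test is given. Gpihbp1, the endothelial anchor of lipoprotein lipase, had 24.2 and 18.2 in the WT pools and 81.9 and 88.5 in the Stk40 KO pools. Apoc3, an apolipoprotein of triglyceride-rich particles, had 24.9 and 16.2 against 58.3 and 129, and Fabp7 had 6.91 and 10.2 against 25 and 34.3. Gpam, which starts glycerolipid synthesis, had 9.45 and 6.27 against 31.5 and 16.5. Plin5, a lipid droplet coat protein, had 9.09 and 5.27 against 12.6 and 20.3, and Acadl, a mitochondrial acyl-CoA dehydrogenase, had 3.91 and 8.27 against 16.2 and 16.4. These 6 were up by the rule, which is also why they have a name, so nothing is read from their direction. Acsl3 had 5.82 and 6.27 in the WT pools and -4.45 and -14.4 in the Stk40 KO pools, and Elovl4 had 1.45 and 2.45 against -0.364 and -3.

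**Figure D5:**
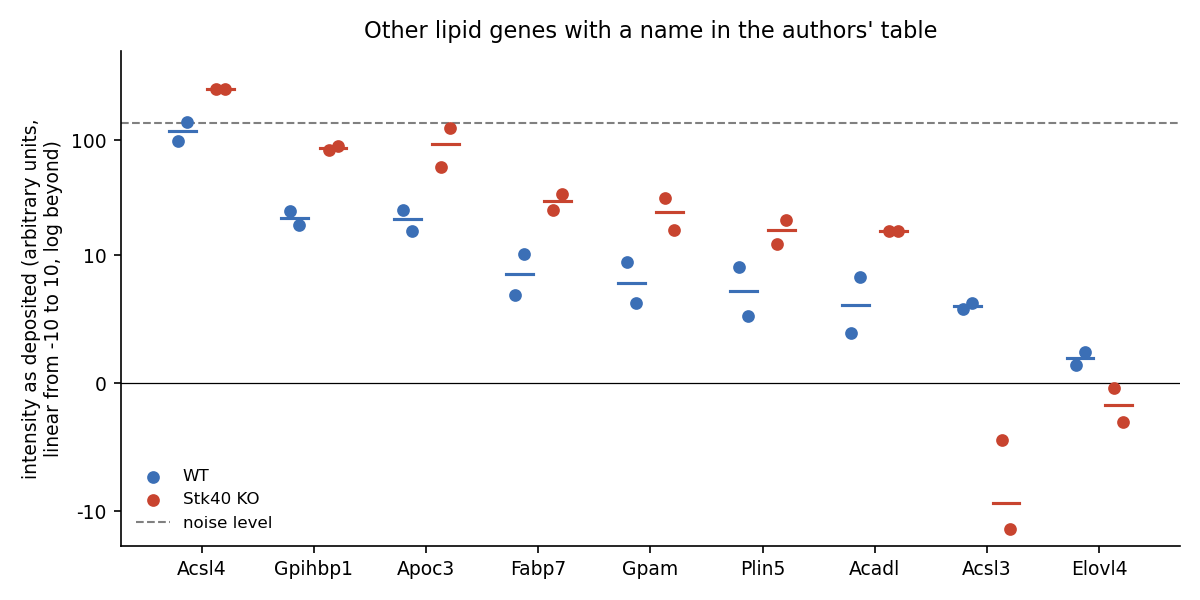
Intensity as deposited on the 4 arrays (arbitrary units, linear near 0 and log further out) of the 9 further lipid genes with a name, with points for arrays, short lines for the mean of each genotype (n = 2 arrays) and a dashed line at the noise level of 143. Acsl4 alone reaches the noise level, with 278 and 280.2 in the Stk40 KO pools.

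Fabp4 is made by several cell types, and named markers of some of them were also higher in the Stk40 KO pools. Of the named macrophage and endothelial markers, only Lyz2, the lysozyme of myeloid cells, lay above the noise level. Of 14 macrophage markers 3 have a name (Lyz2, Marco and Cd163), with a summed intensity of 802 to 963 in the WT pools and of 1925 to 1934 in the Stk40 KO pools, nearly all of it from Lyz2. Marco had 19.9 and 31.6 in the WT pools and 85.5 and 66.1 in the Stk40 KO pools, and Cd163 had 1.82 and 0.727 against 21.5 and 13.7, all in the noise. Of 14 endothelial markers 2 have a name, Emcn and Gpihbp1, with a sum of 46.1 to 49.4 against 134 to 143. Both lay under the noise level on all arrays. Of 8 adipocyte markers, Adipoq, Lep and Plin1 among them, none has a name. Their part in the level of Fabp4 was not tested, and since markers were named by a 2-fold ratio, their sums had to differ.

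Other named markers are listed next. They too were named by a 2-fold ratio on these arrays, and 70.9% of all named genes were up, so nothing is read from their direction. Of 14 markers of neutrophils and granulocytes 6 have a name. Their sums were 1800.2 to 1883 in the WT pools and 4349.55 to 6093 in the Stk40 KO pools. Only Ngp, Camp, Lcn2 and Ltf among them lay above the noise level on all 4 arrays. Of 12 stellate and mesenchymal markers 3 have a name (Col1a1, Des and Acta2), with sums of 278 to 295 against 559 to 668. Nearly all of this came from Col1a1, since Des and Acta2 lay under the noise level on all arrays. Of 18 markers of hepatoblasts and hepatocytes only Cps1 has a name, with 103 and 108 against 1208 and 1646. Both of its WT values lay under the noise level. Of 14 erythroid markers none has a name. For Fabp2, the other named markers of intestinal epithelium were Vil1, with 5.09 and 13.5 in the WT pools and 13.5 and 24.7 in the Stk40 KO pools, and Cldn7, with 11.3 and 18.4 against 35.6 and 43.9. Both lay under the noise level on all arrays, and neither was lower in the Stk40 KO pools as Fabp2 was.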

How the data were processed

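Total RNA of E14.5 fetal livers was hybridized to 4 Affymetrix mouse arrays, 2 per genotype, with 6 livers pooled on each. Genotype and replicate number come from the submitters' labels, and the p-values measure only the spread between these pools. The deposited values are linear intensities of 45101 probe sets. Per the submitters' notes the arrays were processed in MAS5, of which no source used here gives a version, and 99.9% of the values are multiples of 1/11 within 0.001, with no scaling between arrays. The authors' table of 2-fold changes, made after removing probe sets negative on all arrays or inconsistent within a genotype and raising values under 0.1 to 0.1, also holds mean intensities per genotype and their fold. These were not used. The rule was recomputed with inconsistent read as opposite in sign, a reading of this work, which called 1753 probe sets, 1458 of them among the 1467 of the table. It supplied the gene names, with 1 symbol for 1418 of its probe sets. The other 49 have several and were not named. Of 1345 symbols, 1062 were found in the RefSeq table of GRCm38.p6 and 135 more by a synonym.

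The noise level was the 95th percentile of the size of negative values, leaving out 64 control probe sets. It was exceeded by 24.1% to 28.5% of the probe sets on an array, which limits precision. Ratios are of mean linear intensities. limma 3.58.1 in R 4.3.3 (lmFit, eBayes with a trend) was run on log2 intensities at equal 75th percentiles, with lower values set to the noise level, for probe sets that exceeded it on 2 or more arrays, with Benjamini-Hochberg adjustment. On the intensities as deposited, limma took its variance from the trend alone, so that scaling was an alternative. A listed gene was represented by its brightest named probe set. Scripts were tested on simulated data. Alternatives covered scaling, floor, filter, prior, replicate block, the methods' t-test and each array left out. The text names every member probe set, Stk40, listed lipid genes past the threshold, the 3 nearest profiles of each member and up to 4 markers of a list. The lipid genes under the noise level were named because few have a name, after their values were seen. The members and lists were chosen with earlier results of these data known. Promoter and protein sequences of the members were not used here.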

Additional observations from a re-analysis of the deposited data

How the results depend on the processing

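Every member kept its direction under all alternatives tried. This is no separate support, since the members were picked by a ratio on these arrays. Where genotypes do not overlap, leaving out 1 array cannot reverse a direction. As deposited, the ratio of Stk40 KO over WT was 2.04 and 2.15 for the Scd1 probe sets, 2.03 for Scd2, 3.71 for the dimmer Fabp4 probe set and 0.443 for Fabp2, against 1.74, 1.84, 1.75, 3.16 and 0.377 at equal 75th percentiles. All ratios of Fabp2 here are of measured means with Stk40 KO values in the noise, so only the bounds of at least 1.53-fold and 1.66-fold lower stand for its size. The brighter Scd1 probe set gave 1.82 after quantile normalization, and scaling to spiked controls, chosen after seeing the data, gave 1.80 and 1.89 for Scd1. With log2 values raised to the noise level, Fabp2 gave 0.603. Leaving out each array gave 1.71 to 1.78 and 1.79 to 1.88 for Scd1, 1.63 to 1.88 for Scd2, 2.77 to 3.76 and 2.72 to 3.61 for Fabp4 and 0.332 to 0.422 for Fabp2. Probe sets called by limma as higher and lower numbered 154 and 85. They numbered 284 and 11 as deposited, 238 and 160 with the floor at the median size of the negative values, 406 and 132 with spiked controls, and 22 and 10 with the filter at 1 array, the last 2 settings chosen after seeing the data. The filter at all 4 arrays gave 201 lower, and eBayes without a trend 55 lower. The methods' t-test gave 0 and 0, with 1466 at an unadjusted p under 0.05. Leaving out an array gave 95 to 440 higher and 115 to 292 lower, the highest of both without WT replicate 2. The replicate block gave 811 and 1209. Same-numbered arrays deviated together (r = 0.245 over 11317 probe sets, which are not independent), but the labels do not say that a number marks a shared litter or day. Crossed numbers as a block, added after seeing the data, gave 142 lower. Of the listed lipid genes, 1 was called higher (Acsl4) and 0 lower, which says nothing of lipid genes, since Acsl4 entered the fit only through the Stk40 KO pools and had a name only by its ratio. The higher count was 0 with the filter at all 4 arrays and by the methods' t-test, and 0 to 1 with an array left out, since Acsl4 was then not tested without either Stk40 KO array. The 2-fold rule of the methods counted 1242 up and 511 down. It counted 814 up at equal 75th percentiles, 40 and 8 with values raised to the noise level, 3928 and 961 with a threshold of 1.5, and 1387 to 3928 up and 1074 to 1569 down with an array left out. With an array left out, the 2-fold rule could not ask for agreement in sign within the genotype left with 1 array. Those counts thus come from a changed rule. Apart from this, the cause of the shifts was not tested. A fit with no filter could not be made, since most probe sets then lie at the floor on all arrays. Signal over background limits Fabp2 in Stk40 KO and the 8 dim lipid genes.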
